A study of Mus musculus with 48 samples.

Results

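The 2 miRNA groups known as the miR-200 family and the miR-183 family were followed over all groups of the series. The miR-200 family comprised mmu-miR-429, mmu-miR-141, mmu-miR-200c, mmu-miR-200b and mmu-miR-200a, and the miR-183 family comprised mmu-miR-182, mmu-miR-96 and mmu-miR-183 (the species prefix is left out from here on). These 8 miRNAs were taken by name from the 1080 miRNAs on the array, 1023 of them mouse miRNAs. They were chosen by their signal in cortex at 10 months of age, where it had differed between Tg2576 and WT in these same arrays, so that contrast is given here as a description with no test. RNA from brain cortex or whole brain was hybridised to 24 miRNA arrays and 24 mRNA arrays of 1 colour. The WT mice were C57BL/6J, and the Tg2576 mice, labelled as strain Tg(APPSWE)2576Kha, carry human amyloid precursor protein with the Swedish mutation under the hamster prion protein promoter. All mice were male and 10 or 17 months old, and the labels name no treatment. Each of the 8 groups of genotype, age and tissue had 3 samples per assay. The series describes 3 mice per genotype and age but does not say whether cortex and whole brain came from the same mice, so p-values measure the spread between these samples.

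The miR-200 family is best known in epithelial cells, where it represses the transcription factors Zeb1 and Zeb2 and so helps to hold the epithelial state. The miR-183 family is a cluster of sensory organs, abundant in retina, inner ear and olfactory tissue, and acts in the differentiation of sensory neurons. Both families are also known from the olfactory system of the mouse, where the miR-200 family takes part in the formation of olfactory neurons. A miRNA recognises its targets mainly through its seed, bases 2 to 8 from the 5′ end.

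The mature sequences are shown because the seeds divide the 8 miRNAs into smaller target groups than the family names do. They are given 5′ to 3′ from RefSeq (GRCm38.p6), with the seed in capitals. The array names without a star were read as the 3p arm for the miR-200 family and the 5p arm for the miR-183 family, following the older naming, and all 8 had an entry.
mmu-miR-200b: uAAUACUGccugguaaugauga
mmu-miR-200c: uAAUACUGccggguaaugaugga
mmu-miR-429: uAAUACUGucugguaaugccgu
mmu-miR-200a: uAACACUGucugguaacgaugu
mmu-miR-141: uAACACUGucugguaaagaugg
mmu-miR-183: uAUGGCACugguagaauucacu
mmu-miR-96: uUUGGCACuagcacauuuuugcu
mmu-miR-182: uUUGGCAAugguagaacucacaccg

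miR-200b, miR-200c and miR-429 had the same seed, and no other mature entry in the table carried it. miR-200a and miR-141 had a second seed that differed from the first at 1 base and was likewise carried by no other entry. The seeds of the miR-183 family were all different, and that of miR-96 was also carried by miR-1271-5p. miR-200b and miR-200c matched at 20 of 22 positions, as did miR-200a and miR-141, so a probe for one may also bind the other. miR-183 and miR-182 matched at 18 of 22 positions.

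The hairpins lie in 3 clusters, which cross the seed groups. miR-200b, miR-200a and miR-429 lie within 1846 bases on the minus strand of chromosome 4 (GRCm38.p6, chr4:156053905-156055750). miR-200c and miR-141 lie within 477 bases on the minus strand of chromosome 6 (chr6:124717914-124718390). miR-183, miR-96 and miR-182 lie within 3820 bases elsewhere on the minus strand of chromosome 6 (chr6:30165918-30169737).

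All miRNA values below are log2 of the mean probe signal divided by the array's 75th percentile, so that 0 is the level of that percentile. Values under a common floor of -5.67 were set to it. Values at the floor have no order among themselves, and a miRNA at the floor may still have been detected. The arrays detected 241 to 386 miRNAs each, and the 75th percentile lay between a signal of 351 and 1604. On the mRNA arrays, the App probe, which may or may not also bind the human transgene, ranged from 5.77 to 6.42 (log2 signal minus the array's 75th percentile) over the 24 samples. In whole brain the difference between genotypes was 0.25 at 10 months and -0.020 at 17 months, with limma adjusted p-values of 0.431 and 0.905.

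The tissue labels were checked on the mRNA arrays with cerebellar and cortex marker genes. By Gabra6 in whole brain, and by Gabra6 with Cbln3 in cortex, 3 samples went against their labels. Gabra6, which is specific to cerebellar granule cells, was not well above background in whole brain of Tg2576 at 10 months in replicate 2 (-5.92) or at 17 months in replicate 2 (-7.10). In the other 10 whole-brain samples Gabra6 was detected, at -3.94 to 1.68. It was also detected in 4 of the 12 cortex samples, most strongly in WT cortex at 17 months in replicate 2 (0.16). There alone among the cortex samples Cbln3, another granule-cell gene, was well above background. In whole brain Cbln3 was detected in only 6 of the 12 samples, so some samples with Gabra6 lacked Cbln3. At 10 months the summed level of the cerebellar genes went down to 9.98 in WT whole brain and up to 10.3 in Tg2576 cortex. The 3 samples are thus not cleanly set apart from the rest. The family differences, the spread within groups and part of the correlations below are given with and without the arrays of these 3 groups and numbers. The other correlations, such as those of other miRNAs, are given with all samples only. All 8 cortex marker genes were detected in all 24 samples. Olfactory genes, described below, were not part of this check. Omp reached 1.95 in cortex against 1.45 in whole brain, and S100a5 reached 1.66 against 2.04. Whether the other samples fit their labels in that respect was not tested.

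In whole brain, both families spread widely between samples that bore the same label, and no group stood apart. miR-200a, the member with the widest spread in both tissues, measured 1.27, -5.29 and -2.13 in the 3 WT samples at 10 months. In Tg2576 at 10 months it measured -2.70, 1.28 and -2.43. The 2 highest whole-brain values of the age thus came from 1 sample of each genotype, and the groups overlapped. At 17 months miR-200a measured -1.21, -5.67 and -2.73 in WT. In Tg2576 at that age it measured -1.93, -5.67 and -0.05. Each genotype had 1 sample at the floor.

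The other members of the miR-200 family moved with miR-200a, sample by sample. miR-200b, which shares its seed with miR-200c and miR-429, measured 0.41, -5.59 and -2.71 in WT and -3.62, 0.47 and -3.09 in Tg2576 whole brain at 10 months. At 17 months miR-200b measured -2.17, -5.67 and -3.64 in WT and -2.87, -5.67 and -1.0 in Tg2576. The high samples were again WT replicate 1 and Tg2576 replicate 2 at 10 months and Tg2576 replicate 3 at 17 months. miR-429, from the same hairpin cluster, measured 0.81, -5.35 and -2.45 in WT and -3.02, 0.68 and -2.82 in Tg2576 at 10 months. In the older mice it measured -1.81, -5.67 and -3.32 in WT and -2.49, -5.67 and -0.49 in Tg2576. The groups overlapped at both ages.

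The second miR-200 cluster, on another chromosome, followed the same samples. miR-141 measured -0.86, -5.67 and -3.86 in WT and -5.01, -0.85 and -4.56 in Tg2576 whole brain at 10 months. At 17 months miR-141 measured -3.34, -5.67 and -4.79 in WT and -3.99, -5.67 and -2.05 in Tg2576. As for the first cluster, no group was high or low as a whole. miR-200c measured -1.29, -5.67 and -4.04 in WT and -5.67, -1.57 and -5.46 in Tg2576 at 10 months. In the older mice it measured -4.19, -5.67 and -5.64 in WT and -4.89, -5.67 and -2.80 in Tg2576. It was detected on 8 of the 12 whole-brain arrays. miR-141 was detected on 9, miR-429 on 10, miR-200a on 11 and miR-200b on 12.

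The miR-183 family ran in parallel with the miR-200 family. miR-183 measured 0.37, -5.67 and -3.11 in WT and -3.47, 0.20 and -3.65 in Tg2576 whole brain at 10 months. At 17 months miR-183 measured -2.40, -5.67 and -3.76 in WT and -3.08, -5.67 and -1.13 in Tg2576. miR-96, whose hairpin lies beside that of miR-183, was detected on all 12 whole-brain arrays. It measured 0.86, -4.55 and -2.50 in WT and -2.74, 0.67 and -2.92 in Tg2576 at 10 months. At 17 months it measured -1.74, -5.30 and -2.96 in WT and -2.34, -5.67 and -0.47 in Tg2576. miR-182, the third member of that cluster, was at the floor on 9 of 12 whole-brain arrays and reached at most -3.77, in Tg2576 replicate 2 at 10 months.

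**Figure D1:**
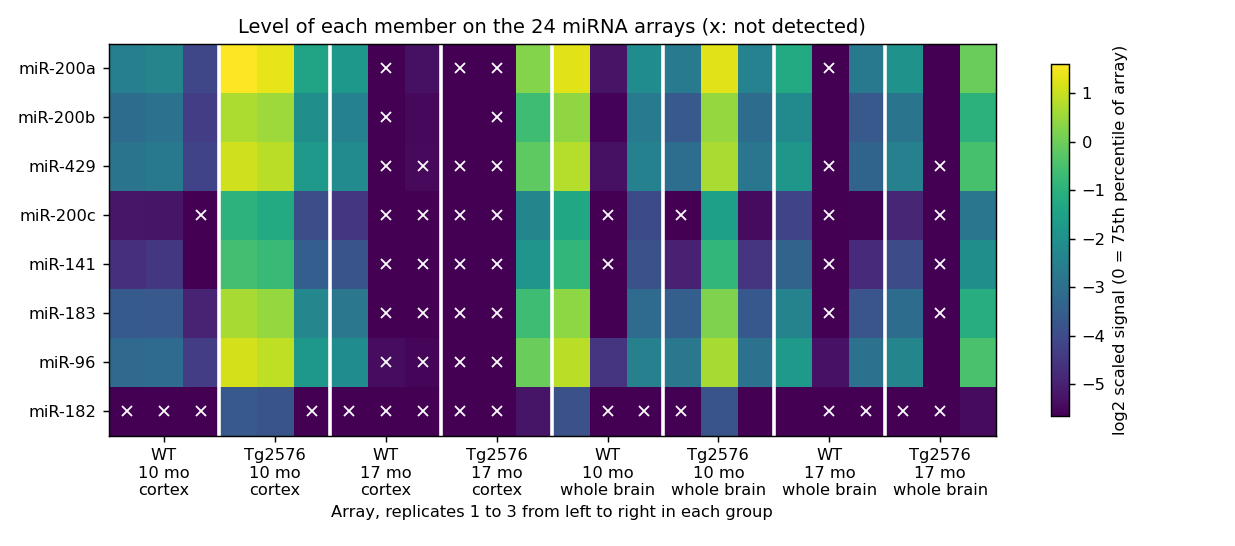
Level of the 8 members (rows) on the 24 miRNA arrays (columns, replicates 1 to 3 of each group from left to right), as log2 signal scaled to the array's 75th percentile; a cross marks a miRNA that was not detected. Bright and dark columns run through all members and lie within the groups, as in WT whole brain at 10 months, where miR-200a measured 1.27, -5.29 and -2.13.

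The mean over each family gave the same picture. For the miR-200 family it was -2.83 ± 2.80 (SD, n = 3) in WT and -2.56 ± 2.22 (SD, n = 3) in Tg2576 whole brain at 10 months, a difference of 0.27 (Tg2576 minus WT). At 17 months the family mean was -4.08 ± 1.56 (SD, n = 3) in WT and -3.39 ± 2.2 (SD, n = 3) in Tg2576, a difference of 0.69. Both differences were smaller than 1 SD of the replicates. For the miR-183 family the corresponding differences were 0.31 at 10 months and 0.41 at 17 months, against replicate SDs of 1.15 to 2.24.

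The sign of these differences depended on single samples. At 10 months the miR-200 family difference fell to -1.01 when Tg2576 replicate 2, the sample lacking Gabra6, was left out. Leaving out WT replicate 2 gave -1.07 and leaving out WT replicate 1 gave 1.72. The 17-month difference fell to -0.37 when Tg2576 replicate 3 was left out and to -0.11 when WT replicate 2 was. It rose to 1.82 when Tg2576 replicate 2, the other sample lacking Gabra6, was left out. The miR-183 family turned with the same samples and was -0.71, -0.68, -0.37 and -0.21 without the 4 arrays that turned the sign. Within slide 2 at 10 months (3 WT arrays and 1 Tg2576 array, replicate 1) the miR-200 difference was -1.18 and the miR-183 difference -0.65. Within slide 3 at 17 months (2 WT and 3 Tg2576 arrays) these were -0.11 and -0.21. The slide 3 values repeat those without WT replicate 2, the only array of that comparison on another slide. They are therefore no separate check, and the slide 2 values rest on a single Tg2576 array.

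No member passed the test between genotypes in whole brain. In limma's moderated test with Benjamini-Hochberg adjustment, 0 of 8 members were called at 10 months, where 0% of the 372 miRNAs tested were called. At 17 months 0 of the 7 members tested were called, against 0% of 339, and miR-182 was not tested because it was detected on fewer than 2 arrays of each genotype. At an unadjusted p under 0.05 the counts of members were also 0, beside 4.84% and 5.01% of all miRNAs tested, and the methods' t-test called 0 members at either age. No member had groups without overlap, against 10.2% of the miRNAs at 10 months and 9.44% at 17 months.

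The estimates were imprecise. At 10 months the largest fold change was that of miR-200a, 0.77 ± 1.91 (log2, SE), with a 95% interval from -3.94 to 5.48 and a limma adjusted p of 1. miR-429, miR-200b, miR-183, miR-96 and miR-182 gave 0.61, 0.55, 0.50, 0.40 and 0.029, and miR-141 and miR-200c gave -0.012 and -0.57, all with a limma adjusted p of 1. At 17 months the log2 fold changes ran from 0.51 for miR-96 to 0.72 for miR-429, whose interval was -3.06 to 4.49. The smallest SE at that age was that of miR-200c, 0.71 ± 0.81 (SE), with an interval from -1.27 to 2.69 and a limma adjusted p of 0.977. In each genotype miR-200c was at the floor in 1 sample, which limits its spread. With 3 samples per group, changes of several fold in either direction therefore lay within these intervals.

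Age and tissue gave no call among the members either. From 10 to 17 months in whole brain the miR-200 family mean went from -2.83 to -4.08 in WT and from -2.56 to -3.39 in Tg2576, and the miR-183 mean from -3.31 to -4.31 and from -3.00 to -3.90. In WT the decrease rested on replicate 1 at 10 months, without which the changes were 0.20 and 0.21. In Tg2576 it rested on the samples lacking Gabra6: without replicate 2 of both ages the change was 1.58 for the miR-200 family and 0.995 for the miR-183 family, with a positive estimate for all 7 members then tested. Without replicate 2 of 10 months alone these were 0.44 and 0.11, and without that of 17 months alone 0.30 and -0.022. Within slide 3, which held 2 Tg2576 arrays of 10 months and all 3 of 17 months, the changes were -1.56 and -1.38. In WT the ages were on different slides, so slide and age cannot be told apart there. With all arrays limma called 0 members in either genotype, beside 0.299% of 335 and 0% of 372 miRNAs. At an unadjusted p under 0.05 the counts of members were 0, beside 10.1% of all miRNAs in WT and 4.84% in Tg2576. No member had ages without overlap, against 12.5% and 7.53% of all miRNAs, and the methods' t-test called 0 members. The members rose and fell together from sample to sample, so these estimates are not separate observations. The WT and Tg2576 age comparisons share no arrays. The genotype by age term, tested over the 12 whole-brain arrays, gave 0 calls among 8 members and 0% of 373 miRNAs, with 0 members and 2.41% of all miRNAs at an unadjusted p under 0.05.

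At 17 months, cortex was compared with whole brain within each genotype. The miR-200 family mean was -4.71 ± 1.54 (SD, n = 3) in WT cortex against -4.08 ± 1.56 in WT whole brain, and -4.10 ± 2.72 in Tg2576 cortex against -3.39 ± 2.2 in Tg2576 whole brain. For the miR-183 family, cortex minus whole brain was -0.60 in WT and -0.53 in Tg2576. No member was called by limma in either genotype (0 of 7 each), beside 1.8% of 334 miRNAs in WT and 7.58% of 330 in Tg2576. At an unadjusted p under 0.05 the counts were again 0, beside 15% and 23.3% of all miRNAs, and 0 members had tissues without overlap, against 19.2% and 28.2%. The methods' t-test called 0 members as well. The WT cortex array of replicate 2, whose mRNA sample held the granule-cell genes, was at or near the floor for all members, and without it the differences in WT were -0.16 for the miR-200 family and -0.26 for the miR-183 family, with 0 members called. In Tg2576 they were -1.84 and -1.41 without whole-brain replicate 2, and they turned positive without whole-brain replicate 3 (0.35 and 0.24) or without cortex replicate 1 or 2 (0.080 and 0.081 for either). The WT miR-200 difference turned to 0.13 without whole-brain replicate 1. In both genotypes the tissues were on different slides, so slide and tissue cannot be told apart.

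With normexp background correction, miR-141 and miR-200c were called higher in WT cortex than in whole brain at 17 months (0.45 ± 0.15 and 0.52 ± 0.12, log2 and SE, limma adjusted p = 0.0091 and 0.0004). Under that correction 226 of the 334 miRNAs were called and the median of all of them rose by 0.45, so both estimates lay close to the shift shared by the array, and slide and tissue coincide here as well.

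**Figure D2:**
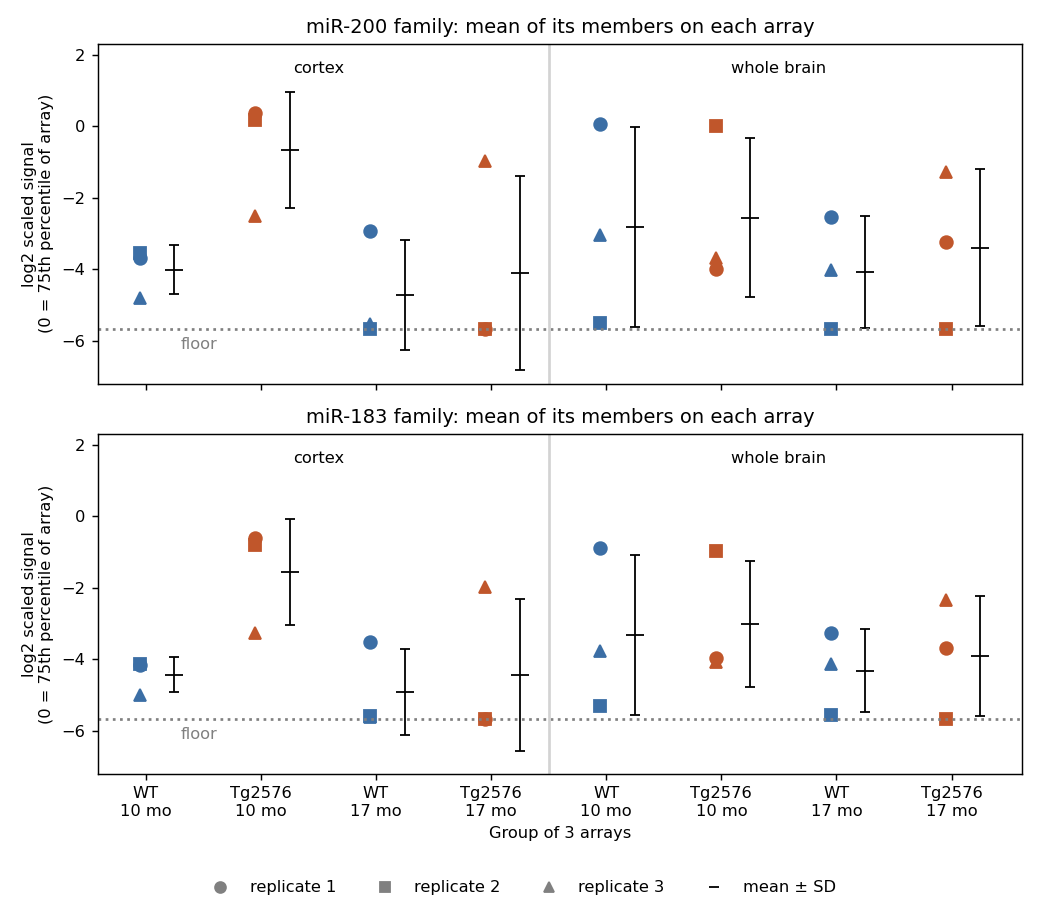
Mean log2 scaled signal over the 5 members of the miR-200 family (top) and the 3 members of the miR-183 family (bottom) on each array, by group, with the mean and SD over 3 arrays; the dotted line is the floor of -5.67. In whole brain the 2 genotypes overlap at both ages, and the group means of the miR-200 family run from -4.08 to -2.56.

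Over the 8 groups, the miR-200 family mean was highest in Tg2576 cortex at 10 months (-0.66 ± 1.62, SD, n = 3), followed by Tg2576 whole brain (-2.56) and WT whole brain (-2.83) of the same age. It was lowest in WT cortex at 17 months (-4.71 ± 1.54). The miR-183 family had the same group at each end, at -1.56 ± 1.47 and -4.91 ± 1.20. In neither family did any of the 7 steps between neighbouring groups in that order exceed the pooled SD of the pair of groups. The smallest SD of any group was that of WT cortex at 10 months, 0.69 for the miR-200 family and 0.49 for the miR-183 family, and the largest was that of WT whole brain at 10 months, 2.80 and 2.24.

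Cortex at 10 months, the contrast by which the members were chosen, had no overlap between the genotypes in either family, which the choice of members itself fixes. There the miR-200 family mean was -3.67, -3.55 and -4.80 in WT and 0.38, 0.16 and -2.52 in Tg2576. The highest whole-brain values of that age, 0.068 in WT and 0.0027 in Tg2576, lay just under the upper 2 of these Tg2576 cortex values. At 17 months the cortex values were -2.94, -5.67 and -5.53 in WT and -5.67, -5.67 and -0.96 in Tg2576, so that 1 Tg2576 sample was high and the other 2 had all 8 members at the floor.

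The spread within groups set these miRNAs apart from nearly all others on the array. In whole brain the pooled SD within the 4 groups was 2.69 for miR-200a, 2.47 for miR-429, 2.37 for miR-200b, 2.33 for miR-96, 2.33 for miR-183, 1.99 for miR-141 and 1.81 for miR-200c. These were the 7 largest of the 347 miRNAs detected on at least 3 whole-brain arrays. The next was miR-375 at 0.86, miR-182 ranked 10 at 0.76, and the median was 0.11. In cortex the same 7 members, at 1.31 to 2.24, were the 7 largest of 307, ahead of miR-451 at 0.75. Without the 3 arrays whose tissue label is in doubt the same 7 places were held by members, at 1.49 to 2.37 in whole brain against 0.98 for miR-375 and at 1.39 to 2.31 in cortex against 0.79 for miR-451. The ranking is a description, since the cortex arrays chose the members.

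**Figure D3:**
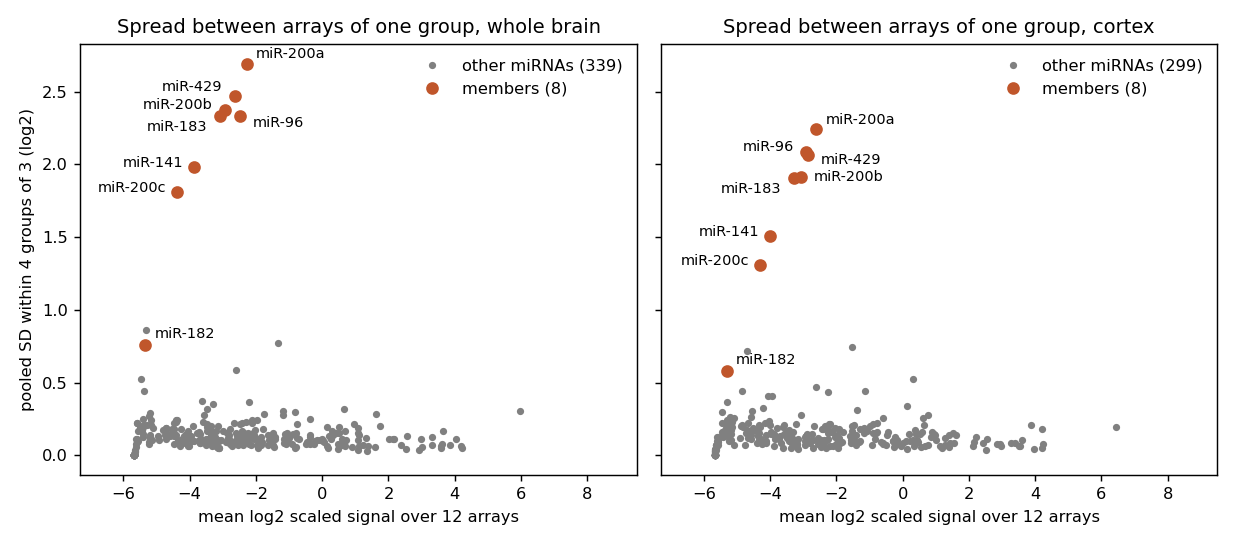
Pooled SD between arrays of one group (log2, vertical) against the mean log2 scaled signal over 12 arrays (horizontal) for each miRNA detected on at least 3 arrays of whole brain (left) or cortex (right). In both tissues 7 of the 8 members lie above all other miRNAs, from 1.81 to 2.69 in whole brain where the next miRNA is at 0.86.

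The members kept a nearly fixed distance from each other. On the 15 arrays where the 7 members other than miR-182 were all detected and above the floor, 8 of them whole brain, the mean of the 7 spanned 4.37 on the log2 scale. The distance of each member from that mean varied with an SD of 0.075 (miR-141) to 0.20 (miR-200c). The difference between the hairpin cluster of chromosome 4 and that of miR-200c and miR-141 had an SD of 0.17, and the difference between the chromosome 4 cluster and miR-183 with miR-96 had an SD of 0.16. The family means correlated with r = 0.996 over 24 arrays and 0.994 over the 12 whole-brain arrays. Over the 10 whole-brain arrays not in doubt r was 0.991. These correlations are descriptions in which both families share each array's RNA and scaling.

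Each member had 2 probes, and these agreed on how the samples differed. Over the arrays where both were detected, their log2 ratio varied with an SD of 0.05 to 0.11 in the 7 members other than miR-182, and their log2 signals correlated with r = 0.997 to 0.9998. The brighter miR-200a probe gave 2.83 times the signal of the dimmer one over 17 arrays. The factor was 6.81 over 11 arrays for miR-141 and 1.07 over 18 arrays for miR-429. The ratio did not shift with tissue: for miR-200a its log2 mean was 1.48 in whole brain and 1.52 in cortex. For miR-182 both probes were detected on only 1 array, so its level rests on the brighter probe, detected on 8 arrays. Between 12 and 20 spots per probe entered each mean, with a median CV of 6.31% among detected probes, and no spot of these probes was saturated.

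**Figure D4:**
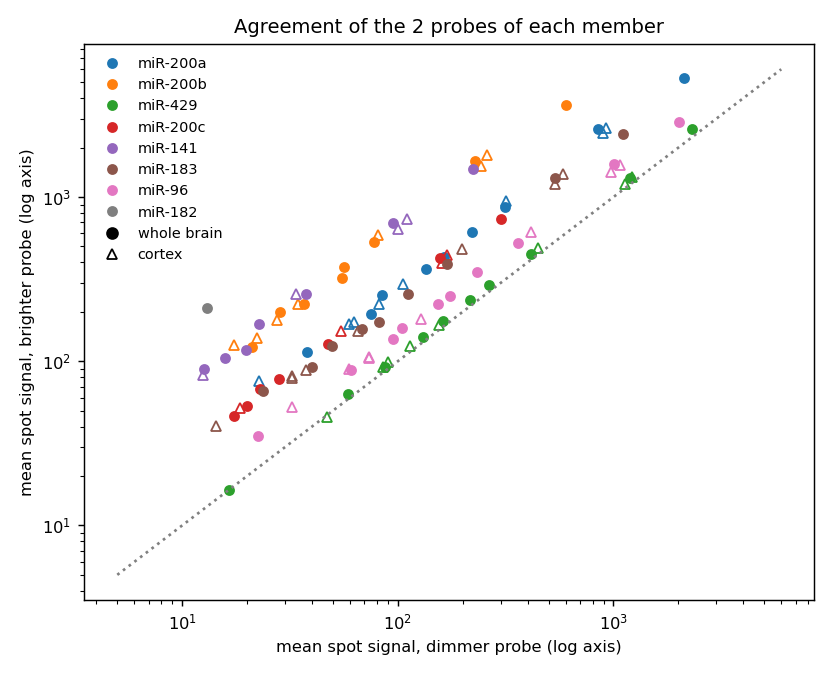
Mean spot signal of the brighter probe (vertical, log axis) against that of the dimmer probe (horizontal, log axis) of each member, for arrays where both were detected; filled circles are whole brain, open triangles cortex, and the dotted line is equality. Each member lies on a line parallel to equality, with an SD of the log2 ratio of 0.05 to 0.11 in the 7 members other than miR-182.

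The opposite strands, named with a star on the array, were seen only where the main strands were high. miR-200a*, miR-200b* and miR-183* had a probe detected on 4 arrays each, and these were the same 4: Tg2576 cortex replicates 1 and 2, WT whole brain replicate 1 and Tg2576 whole brain replicate 2, all at 10 months. miR-141* was detected on the last of these alone. miR-429*, miR-200c*, miR-96* and miR-182* were detected on none of the 24 arrays. The brightest detected probe of miR-200b* gave a signal of 33.8 in WT whole brain replicate 1 and 66.9 in Tg2576 whole brain replicate 2, and on the 2 cortex arrays 31.7 and 37.2. Beside it, the signal of the brightest miR-200b probe was 48.3 to 54.3 times as high on those 4 arrays. For miR-183 and its star that quotient was 60.1 to 78.1, and for miR-200a 146 to 168. Since different probes bind with different strength, the quotients show only that the strands rose on the same arrays.

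The authors' own log2 values ordered the samples alike. Over the arrays above the lowest value in both versions, they correlated with the scaled values at r = 0.993 (miR-96, 21 arrays) to 0.999 (miR-429, 19 arrays). In that version no whole-brain array was at the lowest value for miR-200a, miR-200b, miR-429, miR-183 or miR-96, and 3 were for miR-200c and for miR-141.

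Few other miRNAs followed these families. Among 271 miRNAs detected on at least 6 arrays, the most alike to the miR-200 family mean over 24 arrays was miR-130b, with r = 0.782. It was followed by miR-181a (0.618), miR-212-5p (0.561), miR-124* (0.528) and let-7b (0.526), and the same 5 led for the miR-183 family, with miR-130b at 0.781. Their own range over the 24 arrays was 0.35 to 0.96 on the log2 scale, against 7.28 for miR-200a from the floor to its highest value.

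On the mRNA arrays several genes followed the families closely. They were the highest of far more candidates than the 271 miRNAs above, so their r is not compared with that of the miRNAs. Of 16157 genes compared over the 24 samples matched by group and replicate number, S100a5, which encodes a calcium-binding protein of olfactory sensory neurons, was the most alike to both families (r = 0.970 with the miR-200 and 0.977 with the miR-183 mean). In whole brain S100a5 measured 1.56, -2.69 and -1.70 in WT and -1.60, 2.04 and -1.91 in Tg2576 at 10 months (log2 signal minus the array's 75th percentile). At 17 months it measured -1.07, -2.86 and -1.93 in WT and -1.14, -2.86 and 0.56 in Tg2576. The high and low samples were those of the miRNA arrays.

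Next came Doc2g (r = 0.956 with the miR-200 mean), Shisa3 (0.952) and Tbx21 (0.951), all on the list of olfactory-bulb markers, and Cpa6 (0.946). For the miR-183 family they were Doc2g (0.959), Shisa3 (0.954), Cpa6 (0.946) and Sp8 (0.943), a transcription factor of olfactory-bulb interneurons. Tbx21 marks the bulb's mitral and tufted projection cells. Within the 12 whole-brain samples the correlation with the miR-200 mean was 0.975 for S100a5, 0.960 for Doc2g and 0.942 for Tbx21. Over the 21 samples left without those in doubt it was 0.968, 0.950 and 0.941. Both sets are part of the 24 samples by which these genes were picked, so they are no separate check. The miRNA and mRNA values come from different arrays, so they share the tissue sample, as far as the labels match it, but not the array.

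**Figure D5:**
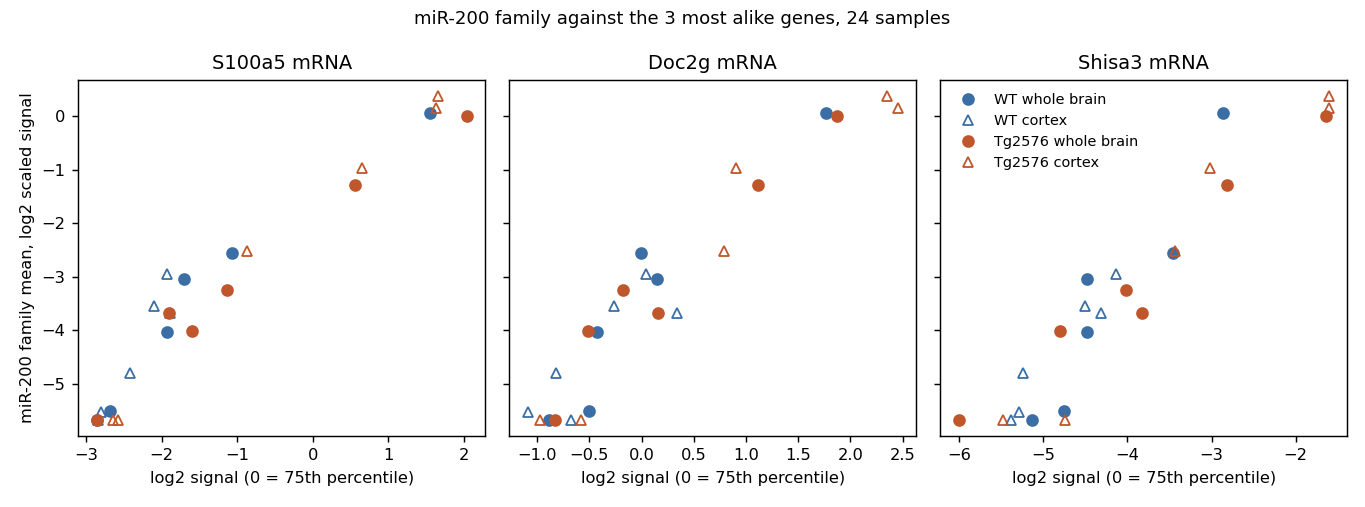
Mean log2 scaled signal of the miR-200 family (vertical) against the log2 signal of S100a5, Doc2g and Shisa3 (horizontal, relative to the mRNA array's 75th percentile) in 24 samples matched by group and replicate number; colour marks genotype and symbol marks tissue. Samples of both genotypes and both tissues lie on one band, with r = 0.970, 0.956 and 0.952.

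The marker lists of brain regions and neighbouring tissues differed in how they moved with the families. The mean of the 19 olfactory-bulb genes correlated with the miR-200 mean at r = 0.832 over 24 samples and 0.916 over the 12 whole-brain samples, and that of the 10 olfactory-epithelium genes at 0.924 and 0.925. Without the 3 samples in doubt the values over 21 samples were 0.844 and 0.938. For the lists of pituitary, choroid plexus, retina and pineal gland, epithelium, cortex and cerebellum, r over 24 samples lay between -0.30 and 0.11. Over the 12 whole-brain samples it was -0.46 for epithelium, -0.40 for cerebellum, -0.31 for choroid plexus, -0.21 for cortex, -0.16 for retina and pineal gland and -0.042 for pituitary. Over the 21 samples epithelium stood at 0.29. Within the olfactory-bulb list the genes were uneven: Tbx21, Doc2g, Shisa3 and Sp8 had an r of 0.94 or more, while Lhx1 (-0.08), Lhx5 (-0.02) and Uncx (-0.20) did not follow. The olfactory-epithelium list was uneven too: S100a5 (0.97), Omp (0.93) and Stoml3 (0.70) followed, while Rtp2 (0.32), Gng13 (0.040), Cnga2 (0.024), Cnga4 (-0.072), Rtp1 (-0.21), Ano2 (-0.28) and Ugt2a1 (-0.50) followed little or ran the other way.

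In whole brain, 16 to 18 of the 19 olfactory-bulb genes were detected per sample, and Barhl2 was not well above background in any. Their summed level (in units of the array's 75th percentile) was 25 to 46.5 in WT and 28.0 to 50.6 in Tg2576 at 10 months. At 17 months it was 26.9 to 31.6 in WT and 31.5 to 46.5 in Tg2576. In cortex the summed level was 23.1 to 28.4 in WT and 30.9 to 63.6 in Tg2576 at 10 months. The cortex level at 17 months was 23.7 to 38.3 in WT and 25.9 to 39.8 in Tg2576. These cortex values are a description with no test. Omp, the defining gene of mature olfactory sensory neurons, was detected in all 12 whole-brain samples, at -3.04 to 1.45. The part of olfactory tissue in the levels of the miRNAs was not tested. In such bulk samples, fewer cells of a type and less RNA per cell cannot be told apart.

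Between genotypes in whole brain, none of the genes on the lists was called at either age by limma, as 0% of the 38108 probes at 10 months and 0% of the 36978 at 17 months were called. At an unadjusted p under 0.05, 11.4% and 13% of all probes passed. The median log2 fold change (Tg2576 minus WT) of the 18 olfactory-bulb genes tested was 0.15 at 10 months and 0.20 at 17 months, beside -0.0029 and 0.011 over all probes. Both medians turned sign with single samples. At 10 months the median was -0.12 without Tg2576 replicate 2, a sample lacking Gabra6, and -0.031 without WT replicate 2, and at 17 months it was -0.045 without Tg2576 replicate 3. The largest were Eomes (0.66 ± 0.91, SE), Shisa3 (0.61), Tbx21 (0.38) and Reln (-0.31) at 10 months and Tbx21 (0.84 ± 0.72, SE), Lhx5 (-0.62), Sp8 (0.61) and Uncx (-0.56) at 17 months. On the olfactory-epithelium list they were Rtp2 (0.61), Omp (0.53), S100a5 (0.46) and Rtp1 (-0.31) at 10 months and Omp (0.95), S100a5 (0.81), Stoml3 (-0.41) and Ano2 (0.25) at 17 months. The limma adjusted p of all these genes was at least 0.342.

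Other regions also varied between the samples of a group. The summed level of the 9 cerebellar genes in whole brain was 9.98 to 19.2 in WT and 7.83 to 37.5 in Tg2576 at 10 months, and 18 to 52.2 in WT and 9.73 to 15.5 in Tg2576 at 17 months. The median fold change of this list was -0.097 at 10 months and ran from -0.87 to 0.39 when single samples were left out, reaching 0.39 without Tg2576 replicate 2. At 17 months 0 of 9 had a positive fold change and 6 had an unadjusted p under 0.05, beside 13% of all probes. The median was -1.55 (-1.28 without Tg2576 replicate 2), with none called after adjustment. The pituitary list, which holds hormones such as Prl and Gh, had a median of -2.06 at 10 months (8 genes tested) and -0.60 at 17 months (7 genes tested), with ranges of -3.08 to -0.95 and -1.67 to -0.061 when single samples were left out. Its summed level ranged from 3.5 to 263 among the 3 WT samples at 10 months. Neither list rose with the families. For cerebellum, r with the miR-200 mean was -0.18 over 24 samples, -0.40 over 12 whole-brain samples and -0.52 over the 10 not in doubt. For pituitary the corresponding values were -0.08, -0.042 and -0.14.

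The remaining lists are given by their medians. At 10 and 17 months they were 0.15 and -0.026 for choroid plexus, 0.020 and 0.050 for epithelium, 0.11 and 0.087 for cortex, and 0.13 and 0.085 for olfactory epithelium. The genes of retina and pineal gland, of which 4 and 5 were tested, had medians of -0.23 and -0.38.

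Reported targets of the families showed small differences. None of 9 targets of the miR-200 family was called by limma at either age. At an unadjusted p under 0.05 there were 2 at 10 months and 3 at 17 months, beside 11.4% and 13% of all probes. Their median log2 fold change was 0.039 at 10 months and -0.092 at 17 months. Zeb1 and Zeb2, the repressors of the epithelial state, gave 0.20 ± 0.10 and 0.35 ± 0.14 (SE) at 10 months. At 17 months they gave -0.23 ± 0.09 and -0.25 ± 0.08, with limma adjusted p-values of 0.382 and 0.355. Over the 24 samples Zeb1 ranged only from 1.84 to 2.37 and Zeb2 from 0.84 to 1.74, with r = 0.23 and 0.12 with the miR-200 mean.

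Among the other targets of the miR-200 family, Sec23a, a component of the vesicle coat, gave 0.36 at 10 months and -0.14 at 17 months. Wasf3, an actin regulator, gave -0.13 and 0.31, and Rps6kb1, the S6 kinase, -0.068 and 0.24. Ppm1f (-0.11 and -0.089), Fhod1 (-0.068 and -0.13), Jag1, a Notch ligand (0.039 and -0.092), and Zfpm2 (0.061 and 0.0039) completed the list. The mean of the 9 genes correlated with the miR-200 mean at r = -0.497 over 24 samples and -0.316 over the 12 whole-brain samples. Without the samples in doubt it was -0.660 over 21 samples and -0.560 over 10. The genes were split: over 24 samples r was -0.57 for Ppm1f, -0.41 for Zfpm2, -0.41 for Fhod1 and -0.16 for Jag1. For the other targets r lay between 0.029 (Rps6kb1) and 0.23 (Zeb1).

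For the miR-183 family, none of 6 reported targets was called. At an unadjusted p under 0.05 there were 2 at 10 months and 1 at 17 months, beside 11.4% and 13% of all probes. Ezr, which links actin to the membrane, gave -0.22 ± 0.07 (SE) at 10 months and 0.25 ± 0.07 at 17 months. Itgb1 gave -0.30 and 0.022, the transcription factor Foxo1 0.16 and -0.14, and Cttn 0.080 and 0.094. Mitf gave 0.019 and 0.014, and Adcy6 gave 0.0091 and 0.072. The list mean correlated with the miR-183 mean at r = -0.11 over 24 samples and -0.069 over the 21 not in doubt. By gene, r over 24 samples was 0.74 for Mitf and 0.15 for Itgb1. It was -0.16 for Ezr, -0.26 for Cttn, -0.35 for Foxo1 and -0.42 for Adcy6.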

How the data were processed

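The authors read 1-colour Agilent arrays with Feature Extraction 10.7.3.1. Per spot, the deposited values are a processed intensity after background subtraction, unscaled between arrays, beside quality marks. They also deposited tables of log2 values, for which the methods name GeneSpring GX and no scaling. For miRNAs that set equalled log2 of the total signal per miRNA minus a constant per array within 0.01 in 100% of values, with column medians from -11.98 to -9.58. The mRNA columns had medians from -3.38 to -3.22.

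In R 4.3.3 with limma 3.58.1 and the data.table package (version 1.17.8), spots marked as outliers were left out, spots of a probe and then probes of a miRNA were averaged, and the mean was divided by the array's 75th percentile (taken from the 402 probes above background throughout the 24 arrays), floored and taken to log2. For the floor, the weakest scaled signal clearing the background mark was found per array, and the median of these was used. Testing required detection on 2 or more arrays in 1 of the groups, and a probe counted as detected if over 0.5 of its spots were well above background. For mRNAs, log2 intensity minus the array's 75th percentile was used, with 1 probe per gene, the brightest on average, named through RefSeq transcripts (26056 of 55681 probes).

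lmFit and eBayes were fitted over all features for each pair of groups, with Benjamini-Hochberg adjustment over all features tested, and the fits were tested on simulated data. Genes were named by rule: the members and their stars, the 5 most correlated miRNAs and genes per family (detected on at least 6 arrays), up to 4 largest changes per mRNA list (given for the olfactory lists, the others by counts and medians), all listed targets, and App. Correlations carry no p. The replicate numbers were not used as pairs, since correlations of same-numbered deviations ran from -0.94 to 0.94 over the comparisons. These correlations cannot show whether cortex and whole brain came from the same mice. The members and lists were chosen with earlier results of these data known. The number of arrays limits the precision.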

Additional observations from a re-analysis of the deposited data

How the results depend on the processing

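For miR-200 and miR-183 members called in the 7 comparisons, the count stayed at 0 in 102 of 103 alternatives and without each array in turn (48 of 48, range 0 to 0). The exception was 2 members under normexp for WT cortex against whole brain at 17 months, where most miRNAs were called. Family differences between groups moved by less than the replicate SD in 117 of 122 alternatives and in all 72 that left out 1 array. The exceptions were Tg2576 by age without the arrays that went against their tissue label (1.58 for the miR-200 and 0.995 for the miR-183 family) and, with the authors' log2 values, cortex minus whole brain at 17 months (-2.37 and -2.79 in WT and -3.47 for the miR-183 family in Tg2576). Under normexp cortex minus whole brain in WT turned to 0.27 and 0.26. Other signs turned as given above. No paired fit changed a call: with the replicate number as a block the count of members called was 0 in each comparison and the family differences stayed at 0.27 and 0.31 at 10 months and 0.69 and 0.41 at 17 months. Whether same-numbered samples of cortex and whole brain share more than the number is not known. The fits without the arrays that went against their tissue label were chosen after seeing the data and gave 0 calls, as did a random slide block for WT by age and WT by tissue. That block does not separate slide from group, since in these comparisons and in Tg2576 by tissue no slide held both groups. The list genes called on the mRNA arrays stayed at 0 throughout.

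Member estimates between genotypes in whole brain turned sign as follows. With slide as a block they were -0.65 (miR-200a), -0.99 (miR-200b), -0.69 (miR-429), -0.67 (miR-183), -0.67 (miR-96) and -0.60 (miR-182) at 10 months. At 17 months they were -0.58 (miR-200a), -0.27 (miR-200b), -0.32 (miR-429), -0.21 (miR-183) and -0.48 (miR-96). At 10 months slide 3 held no WT array, so the block compares Tg2576 replicate 1 alone with the WT arrays. At 17 months it leaves out WT replicate 2, the only array of that comparison on slide 4. At 10 months miR-200c and miR-141 gave 1.49 and 2.11 with the authors' log2 values, 0.23 and 0.85 with the total signal per miRNA, and 0.046 and 0.50 with a floor 4 times lower. miR-141 gave 0.022 with the 75th percentile over all probes and 0.015 with normexp, where miR-182 gave -0.032. None passed the adjusted test, and the cause was not tested.

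Without 1 array each, member estimates at 10 months ran from -0.85 to 2.43 (miR-200a), -0.93 to 2.06 (miR-200b), -0.90 to 2.18 (miR-429), -1.90 to 0.62 (miR-200c), -1.32 to 1.29 (miR-141), -0.94 to 2.08 (miR-183), -0.84 to 1.86 (miR-96) and -0.27 to 0.63 (miR-182). At 17 months they ran from -0.60 to 2.21 (miR-200a), -0.44 to 1.89 (miR-200b), -0.48 to 2.11 (miR-429), -0.11 to 1.32 (miR-200c), -0.23 to 1.58 (miR-141), -0.43 to 1.83 (miR-183) and -0.67 to 1.93 (miR-96).

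Among single mRNAs, leaving out 1 array turned the sign at 10 months of Tbx21 (-0.19 to 0.90), Eomes (-0.073 to 1.49), Shisa3 (-0.28 to 1.30), Omp (-0.68 to 1.58), S100a5 (-0.81 to 1.71), Zfpm2 (-0.049 to 0.16), Jag1 (-0.0051 to 0.090), Rps6kb1 (-0.11 to 0.0017), Mitf (-0.15 to 0.11) and Adcy6 (-0.033 to 0.033). At 17 months it turned S100a5 (-0.046 to 1.66), Zfpm2 (-0.23 to 0.12), Mitf (-0.17 to 0.16), Cttn (-0.0050 to 0.18), Itgb1 (-0.060 to 0.065) and App (-0.050 to 0.0022).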
